A study of Bos taurus with 6 samples.

Results

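The miRNAs of vessel walls and connective tissue were examined in fetal bovine serum (FBS), the serum of unborn calves that feeds cultured cells. They are the miRNAs numbered miR-126, miR-143, miR-145, miR-199a, miR-199b, miR-214, miR-221 and miR-222, both arms, picked by name. Of 502 human names listed 11 belong to them, hsa-miR-143-3p and hsa-miR-199a-5p among them, and of 395 mouse names also 11. RNA of 3 pellets and 3 supernatants was sequenced, each from 40 mL of thawed FBS spun at 100000 g for 24 h. The pellet is enriched in extracellular vesicles (EVs), while RNA in smaller protein complexes stays in the supernatant, of which 20 mL was concentrated on 3 kDa filters. All 6 libraries were made from 60 ng RNA treated with T4-PNK, with inserts of 15 to 65 nt, and read for 50 nt. FBS is a pool of material from cells that are not in the sample, so the tissue of origin of a miRNA cannot be told from these libraries, nor fewer particles from less miRNA per particle. The study calls the samples batches of FBS in 1 place and aliquots in another, so a p-value speaks only to how much these samples varied, and that variation may be technical.

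As background, a miRNA gene is transcribed as a hairpin, whose 5′ arm (5p) and 3′ arm (3p) each can give a mature miRNA that lowers the translation and stability of target mRNAs. miR-126 is the best known miRNA of endothelial cells, where it sustains signalling of the growth factor VEGF. miR-143 and miR-145 keep vascular smooth muscle cells contractile, and miR-199a and miR-214 are marks of mesenchymal cells and fibroblasts. Mature sequences were not analysed here.

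In the cattle assembly ARS-UCD2.0 all 8 numbers have a gene, with 9 genes on 4 chromosomes, used here for names and neighbours alone. MIR126 lies inside EGFL7, a gene of endothelial cells. MIR143 and MIR145 lie beside each other inside 1 long non-coding RNA gene on chromosome 7, and MIR221 and MIR222 inside another on chromosome X. MIR214 and MIR199A-1 lie inside a long non-coding RNA gene within DNM3 on chromosome 16, and MIR199A-2 and MIR199B lie within DNM2 and DNM1, genes of the dynamin family. MIR214 overlaps MIR3120 on chromosome 16. In the human mapping miR-3120-3p was listed at 0.150 RPM in pellet 1 and at 0.261 RPM in supernatant 2. It was listed at 0 in the other 4 libraries.

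The authors' values are RPM, the reads of a miRNA for every 1000000 mapped reads of its library. The reads are from cattle, and only those that mapped to the human or mouse genome count. No values mapped to the cattle genome were used here. The paper reports that a larger share of supernatant than of pellet reads mapped to human. A fold per mapped read is thus not a fold per library read. Mapped reads were estimated with the smallest value common to 6 or more miRNAs as 1 read, and ran from 867426 (pellet 3) to 6660802 (pellet 1) for the human genome. For the mouse genome 1.04 to 1.13 times as many reads mapped. A single read counts as 0.150 RPM in pellet 1 but as 1.15 RPM in pellet 3, where a level of a few RPM rests on few reads. All listed miRNAs took 8.99% ± 3.46 of the pellet reads that mapped to human and 5.52% ± 0.318 of such supernatant reads (SD over 3 libraries), most of them miR-122 and miR-1246. By limma on log2(RPM + 1), with Benjamini-Hochberg adjustment, 73 of 153 tested human miRNAs passed as higher in pellets and 0 as lower, also at an unadjusted p of 0.05, with a median log2 fold change of 2.05. A higher level in the pellets is to be read against this background.

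The vascular and mesenchymal miRNAs were a small part of the miRNA reads of FBS. They consisted mostly of miR-143-3p and the joint 3p arm of miR-199a and miR-199b. In the human mapping the 11 names summed to 497, 388 and 128 RPM in pellets 1, 2 and 3, and to 55.9, 62.8 and 67.3 RPM in supernatants 1, 2 and 3. Every pellet was above every supernatant (exact permutation test, two-sided, p = 0.10, the smallest possible with 3 against 3). Of all listed miRNA reads they made up 0.363% ± 0.151 in a pellet, against 0.113% ± 0.0167 in a supernatant (SD over 3 libraries, exact permutation p = 0.10). The difference was no longer visible when miR-122 and miR-1246 were left out of the total. Of the other miRNA reads they then made up 2.69%, 3.16% and 1.89% in pellets 1, 2 and 3, against 2.15%, 2.68% and 2.41% in supernatants 1, 2 and 3 (exact permutation p = 0.70). The mouse mapping gave sums of 436, 349 and 110.4 RPM for the pellets, against 47.1, 51.7 and 58.1 RPM for the supernatants.

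**Figure D1:**
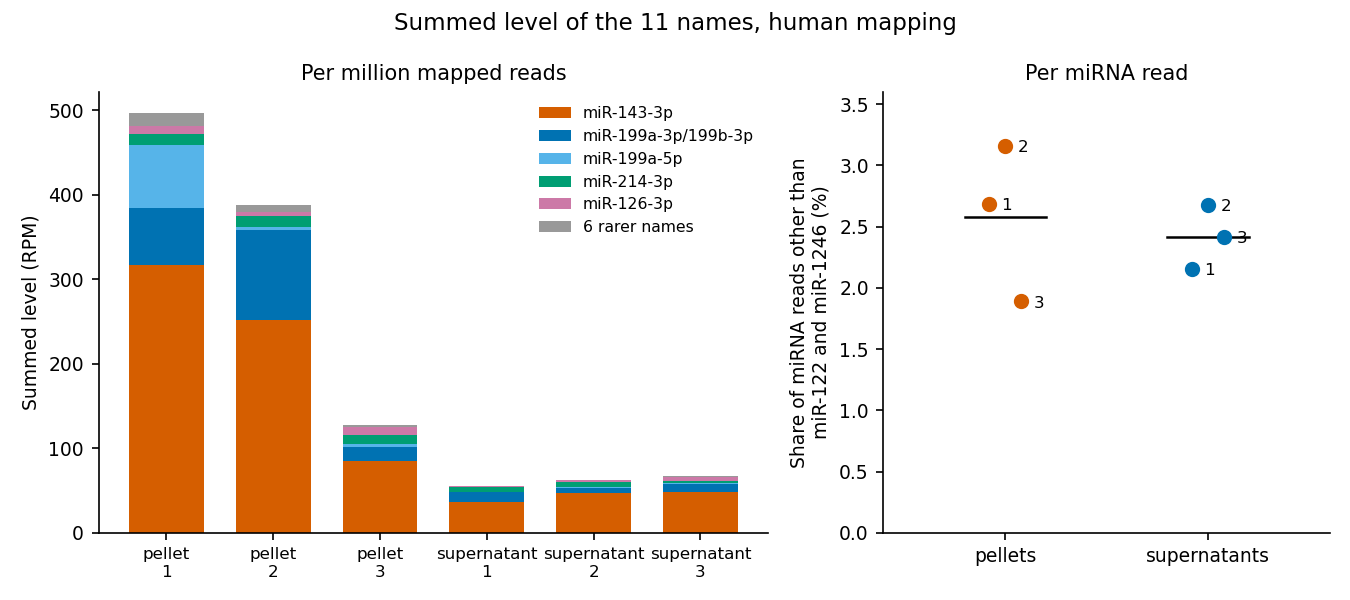
Summed level of the 11 vascular and mesenchymal names in the human mapping, on the left in RPM for each library, stacked by miRNA, and on the right as a percentage of the miRNA reads other than miR-122 and miR-1246, with 1 point for each library and a line at the mean. On the left the pellets (128 to 497 RPM) stand above the supernatants (55.9 to 67.3 RPM), and on the right the fractions overlap.

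Of the 11 names 5 passed the filter of 1 RPM in at least 3 libraries in each mapping, which 3 pellets alone can satisfy. miR-199a-5p met it through the 3 pellets alone, so its test and the counts that hold it are descriptions. In the human mapping 2 of the 5 passed limma as higher in the pellets, beside 47.7% of all tested miRNAs, and 0 were lower. In the mouse mapping 3 of the 5 passed as higher, beside 55.9% of all, and 0 were lower. Pellets and supernatants did not overlap for 4 of the 5 in the human mapping, beside 66.7% of all tested miRNAs, and for 5 of the 5 in the mouse mapping, beside 72% of all. The median log2 fold change of the 5 was 2.10 in the human and 2.15 in the mouse mapping, beside 2.05 and 2.12 over all tested miRNAs. These shares and medians are close to the background. Calls of all miRNAs depended on the supernatants in the same way. Without supernatant 1 or 2 limma passed 0 miRNAs in either mapping, with 60 to 67 higher before adjustment (p of 0.05). Without supernatant 3 it passed 31 human and 26 mouse miRNAs.

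**Figure D2:**
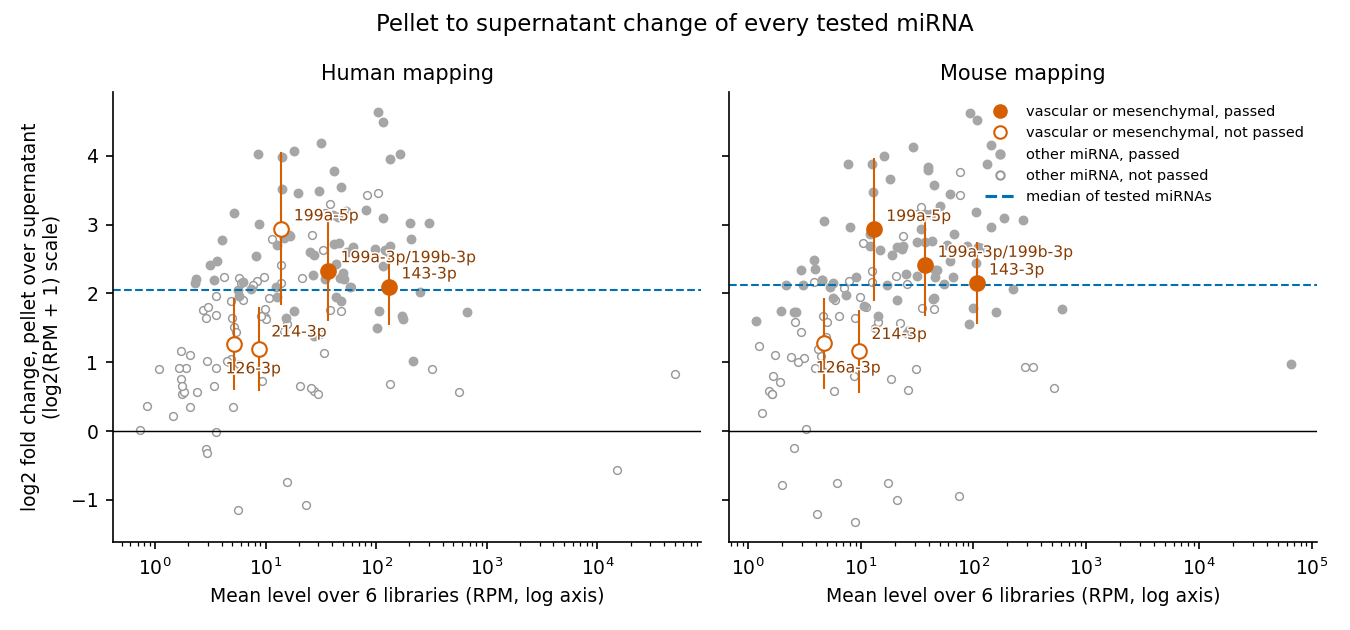
Change of each tested miRNA between pellets and supernatants (log2 fold change on the log2(RPM + 1) scale) against its mean level over 6 libraries (RPM, log axis), in the human and the mouse mapping. The named vascular and mesenchymal miRNAs, with standard errors, lie around the dashed median (2.05 and 2.12), with miR-199a-5p above it and miR-126 and miR-214-3p below it.

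The endothelial miRNAs had few reads. miR-126-3p stood at 9.31, 4.49 and 9.22 RPM in pellets 1, 2 and 3, and at 1.67, 1.83 and 4.54 RPM in supernatants 1, 2 and 3. Pellet 2 and supernatant 3 were nearly the same, so the fractions overlapped. These values rest on 62 reads in pellet 1 and on 7 to 14 reads in each of the other libraries. The log2 fold change of 1.26 (standard error 0.67) did not pass (adjusted p = 0.134 from limma). In the mouse mapping, where the name is miR-126a-3p, the pellets held 8.45, 4.33 and 8.38 RPM, against 1.51, 1.62 and 4.08 RPM for the supernatants. The fractions no longer overlapped there, by a margin of less than 1 read, and it did not pass either (log2 fold change 1.28, adjusted p = 0.120 from limma). No 5p arm of miR-126 was listed in either mapping.

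miR-126 is also abundant in platelets. The names of the platelet and leukocyte list (miR-142-5p and both arms of miR-223) summed to between 31.8 and 241 RPM in a pellet and between 12.7 and 18.8 RPM in a supernatant. Nearly all of this was miR-142-5p, at 31.3, 241 and 39.2 RPM in pellets 1, 2 and 3. miR-223-3p, a defining miRNA of myeloid cells and platelets, was listed at 0 in 5 libraries and at 0.196 RPM in pellet 2. That is less than 1 read, which counts as 0.637 RPM there. A count of 0 allows up to 0.450 RPM in pellet 1 and 3.46 RPM in pellet 3 (3 counts). How well the libraries captured miR-223-3p was not tested. The part of blood cells in the level of miR-126-3p was not tested.

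miR-221 and miR-222 share a primary transcript and restrain the receptor KIT in endothelial cells. miR-221-3p stood at 2.25 RPM in pellet 1 and 8.29 RPM in pellet 2, that is 15 and 13 reads, and was listed at 0 in pellet 3. In supernatants 1, 2 and 3 it stood at 0, 0.783 and 0.325 RPM, which is 3 reads at most. It reached 1 RPM in 2 libraries and was not tested. miR-222-3p was listed at 1.05 RPM in pellet 1, from 7 reads, and at 0 in the other 5 libraries. In pellets 2 and 3 a count of 0 allows up to 1.91 and 3.46 RPM (3 counts), which is above the level of pellet 1, whereas in the supernatants it allows 0.558 to 0.974 RPM, which is below it.

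The smooth muscle miRNA miR-143-3p was the most abundant name of the group in every library. It stood at 317, 251 and 84.5 RPM in pellets 1, 2 and 3, and at 36.8, 46.5 and 47.9 RPM in supernatants 1, 2 and 3. No pellet overlapped a supernatant, and pellet 3 was nearest to the supernatants. Its share of the summed level of the 11 names was 63.7% to 66.1% in a pellet and 65.7% to 74.0% in a supernatant. Among all listed human miRNAs it ranked from 12 (supernatant 2) to 23 (pellet 3). With means of 217 ± 119.7 RPM for pellets and 43.7 ± 6.05 RPM for supernatants (SD over 3 libraries), its log2 fold change was 2.10 (standard error 0.55, adjusted p = 0.0229 from limma). Leaving out supernatant 1, 2 or 3 ended the call, as it did for all or most of the called miRNAs (adjusted p = 0.0878, 0.0976 and 0.0722 from limma), while the log2 fold change stayed at 1.98, 2.14 and 2.17. With median-of-ratios scaling, which moves the median of all tested miRNAs from 2.05 to 0.39, its log2 fold change was 0.07, and with the total of the miRNAs other than miR-122 and miR-1246 it was -0.045.

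Mapped to mouse, miR-143-3p stood at 269, 204 and 64.4 RPM in pellets 1, 2 and 3, against 27.7, 35.7 and 38.0 RPM in supernatants 1, 2 and 3. The fractions were again apart, and the log2 fold change of 2.15 had a standard error of 0.60 (adjusted p = 0.0238 from limma). The call was again lost when supernatant 1, 2 or 3 was left out (adjusted p = 0.0942, 0.0929 and 0.0758 from limma), with log2 fold changes of 2.02 to 2.24.

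miR-145 was nearly absent from these libraries, although its gene lies beside that of miR-143. How well the libraries captured each miRNA was not tested, so the folds below compare reads, not amounts in FBS. miR-145-5p, its main arm in smooth muscle, was listed at 0.649 RPM in supernatant 3, from 2 reads, and at 0 in the other 5 libraries. Against the limit that 3 counts set in a library, miR-143-3p was at least 703-fold higher in pellet 1 and at least 131-fold and 24.4-fold higher in pellets 2 and 3. In supernatants 1 and 2 it was at least 65.8-fold and 59.4-fold higher. The other arm, miR-145-3p, was listed at 0.601 RPM (4 reads) in pellet 1 and at 1.15 RPM (1 read) in pellet 3, and at 0 elsewhere. Mapped to mouse, miR-145a-5p was likewise listed in supernatant 3 alone, at 0.874 RPM, and miR-145a-3p in pellets 1 and 3 alone.

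**Figure D3:**
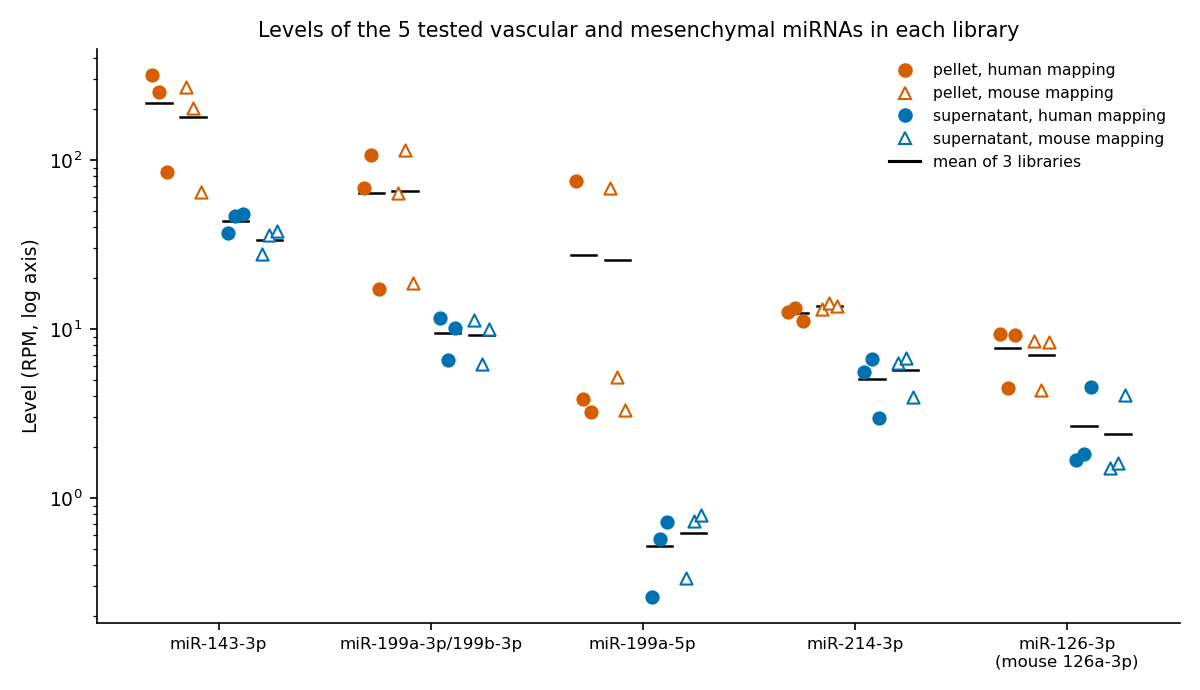
Level (RPM, log axis) of the 5 tested vascular and mesenchymal miRNAs in each pellet (orange) and supernatant (blue) of the human mapping (circles) and the mouse mapping (triangles), with lines at the means of 3 libraries. miR-143-3p is highest (84.5 to 317 RPM in the pellets of the human mapping). miR-214-3p has the tightest pellets (11.2 to 13.2 RPM, from about 9.72 to 83.9 reads), and miR-199a-5p has 1 pellet at 74.7 RPM with the others near 3 RPM.

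The 3p arms of miR-199a and miR-199b are listed under 1 joint name, so their reads cannot be divided among the 3 cattle genes of these numbers. miR-199a-3p/miR-199b-3p stood at 68.2, 107 and 17.3 RPM in pellets 1, 2 and 3, and at 11.7, 6.53 and 10.2 RPM in supernatants 1, 2 and 3. The fractions did not overlap, and pellet 3, with 15.0 reads, was again nearest to the supernatants. The log2 fold change was 2.33 (standard error 0.73, adjusted p = 0.0346 from limma). Leaving out pellet 1 or 2 ended the call (adjusted p = 0.0657 and 0.0714 from limma), as did leaving out supernatant 1, 2 or 3 (adjusted p = 0.0900, 0.124 and 0.0917 from limma). The log2 fold change was 2.12 and 1.80 without these pellets and 2.49, 2.11 and 2.40 without these supernatants. Median-of-ratios scaling left 0.39 in the human and 0.37 in the mouse mapping, and neither passed. Mapped to mouse, the pellets held 63.8, 114 and 18.6 RPM and the supernatants 11.3, 6.18 and 10.04 RPM (log2 fold change 2.41, adjusted p = 0.0305 from limma). The same libraries ended the call there, pellets 1 and 2 (adjusted p = 0.0536 and 0.0642 from limma) and supernatants 1, 2 and 3 (adjusted p = 0.0904, 0.111 and 0.0868 from limma), with log2 fold changes of 1.85 to 2.56.

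The 5p arm, miR-199a-5p, which represses HIF1A and CAV1, followed another pattern across the pellets. It stood at 74.7 RPM in pellet 1, from about 498 reads, but at 3.82 and 3.23 RPM in pellets 2 and 3, from 6 and about 2.80 reads. Supernatants 1, 2 and 3 held 0.261, 0.574 and 0.722 RPM, each 1.40 to 2.22 reads. No pellet overlapped a supernatant, but the pellet mean of 27.3 RPM became 3.53 RPM without pellet 1. The log2 fold change of 2.94 (standard error 1.11) did not pass in the human mapping (adjusted p = 0.0535 from limma). In the mouse mapping, with 67.9, 5.23 and 3.29 RPM for the pellets against 0.334, 0.727 and 0.795 RPM for the supernatants, it passed (log2 fold change 2.93, adjusted p = 0.0437 from limma). Both mappings read the same libraries, and the values differ by 0.343 to 2.57 reads, so this is 1 result close to the threshold. With median-of-ratios scaling it was 1.68 and 1.52, the highest of the 5 in each mapping, and neither passed. Without pellet 1 the log2 fold change was 1.58 in the human and 1.69 in the mouse mapping, and it did not pass (adjusted p = 0.0788 and 0.0635 from limma). Without pellet 2 or 3 it passed in the human mapping (adjusted p = 0.0444 and 0.0297 from limma), and leaving out supernatant 1, 2 or 3 ended the call of the mouse mapping (adjusted p = 0.123, 0.113 and 0.108 from limma), with log2 fold changes of 2.80, 2.99 and 3.01.

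The joint 3p name, which also holds reads of miR-199b, and miR-199a-5p were thus not in a fixed proportion. This rests mainly on pellet 1, since the other libraries of the human mapping hold at most 6 reads of miR-199a-5p. The joint 3p name was 0.913 times as abundant as miR-199a-5p in pellet 1, 27.9 times in pellet 2 and 5.37 times in pellet 3. In supernatants 1, 2 and 3 it was 44.8, 11.4 and 14.1 times as abundant, with fewer than 3 reads of the 5p arm in each. As log2((RPM + 1)/(RPM + 1)) it was 2.16 ± 2.30 for pellets, against 2.76 ± 0.54 for supernatants (SD over 3 libraries, two-sided exact permutation p = 0.70). Without pellet 1 the difference turned from -0.61 to 0.53. For miR-199a-5p to miR-143-3p the difference was 0.84 (exact permutation p = 0.70) and turned to -0.14 without pellet 1. For miR-126-3p to miR-143-3p it was -0.83 (exact permutation p = 0.40). The 6 ratio tests of both mappings shared an adjusted p of 0.80.

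miR-199b-5p, whose gene lies within DNM1, was listed at 1.87 RPM in pellet 1, from about 12.4 reads, at 1.15 RPM (1 read) in pellet 3, and at 0 elsewhere. In pellet 1 it was thus far below miR-199a-5p at 74.7 RPM, and near-identical members can share reads.

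miR-214-3p, which represses EZH2, varied least of the 5 tested names among the pellets. It stood at 12.6, 13.2 and 11.2 RPM in pellets 1, 2 and 3, and at 5.54, 6.61 and 2.97 RPM in supernatants 1, 2 and 3. The pellet values rest on about 83.9, 20.8 and 9.72 reads, so the small spread was not read as a trait of miR-214-3p. All pellets lay above all supernatants, with means of 12.3 ± 1.03 and 5.04 ± 1.87 RPM (SD over 3 libraries, two-sided exact permutation p = 0.10). By limma, which sets the spread of a miRNA partly from others of its level, the log2 fold change of 1.19 (standard error 0.61) did not pass (adjusted p = 0.123). Mapped to mouse, the pellets held 13.1, 14.1 and 13.7 RPM and the supernatants 6.33, 6.73 and 3.98 RPM (log2 fold change 1.16, adjusted p = 0.120 from limma). With median-of-ratios scaling the sign turned in both mappings (-0.61 and -0.76), as it did for miR-126 (-0.34 and -0.37), and none of these values passed.

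The 5p arm, miR-214-5p, was found in pellet 1 alone, at 9.76 RPM from 65 reads. It was listed at 0 in the other 5 libraries, and pellet 1 was at least 5.10-fold above the 3 counts allowed in pellet 2 and at least 2.82-fold above those of pellet 3. In pellet 1 miR-214-3p was only slightly higher, at 12.6 RPM. Of the 6 rarer names 5 were found in pellet 1, which has the most reads, and 1 or 2 in each of pellets 2 and 3.

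**Figure D4:**
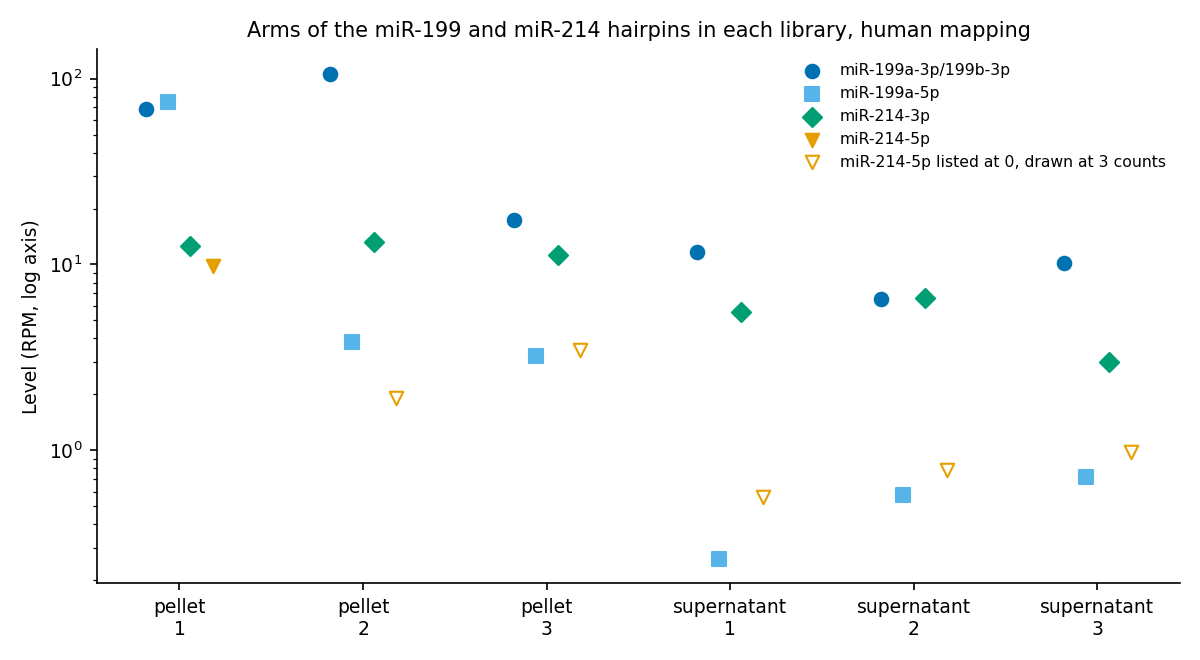
Level (RPM, log axis) of both arms of the miR-199a and miR-214 hairpins in each library of the human mapping, with open triangles where miR-214-5p was listed at 0, drawn at the level of 3 counts. miR-199a-5p (74.7 RPM) and miR-214-5p (9.76 RPM) are high in pellet 1 alone, while the 3p arms are present in every library.

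By mean level the order in the supernatants was miR-143-3p, miR-199a-3p/miR-199b-3p, miR-214-3p, miR-126-3p and miR-199a-5p in both mappings. There miR-214-3p overlapped with both of its neighbours, while miR-143-3p stood above all others and miR-199a-5p below them. In the pellets miR-199a-5p came before miR-214-3p through pellet 1. Within each pellet miR-143-3p stood above miR-199a-3p/miR-199b-3p, but across the pellets neighbours overlapped. The exception was miR-214-3p and miR-126-3p, with the lowest miR-214-3p at 11.2 RPM and the highest miR-126-3p at 9.31 RPM. That lowest value, in pellet 3, rests on about 9.72 reads.

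Both mappings listed the same arms, and most names had nearly the same reads. For miR-126-3p, miR-145-3p, miR-214-5p and miR-222-3p the estimated reads of the mappings differed by at most 0.05 reads in a library. miR-143-3p lost reads in the mouse mapping, which held 0.838 to 0.936 times the human reads. miR-214-3p gained them, with 1.12 to 1.49 times the human reads, as did miR-199a-3p/miR-199b-3p with 1.03 to 1.18 times. The cause was not tested.

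Across the 6 libraries of the human mapping, miR-143-3p was followed most closely by miR-27a-3p (Pearson r = 0.990 on log2(RPM + 1)), miR-148b-3p (0.990), let-7i-5p (0.989), miR-99a-5p (0.980) and miR-382-5p (0.979). Within the group miR-199a-3p/miR-199b-3p was most like it (0.949) and miR-126-3p least (0.670). miR-199a-5p was followed most closely by miR-532-5p (0.987), miR-409-3p (0.986), miR-411-3p (0.985), miR-493-3p (0.985) and miR-323a-3p (0.971). Its correlation with miR-199a-3p/miR-199b-3p, partly of the same hairpins, was 0.716. These are descriptions over 6 libraries, which share the difference between fractions and their depths.

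Other miRNAs known from vessels and fibroblasts were mostly higher in the pellets too. Of the 20 names listed (miR-10b, miR-21, miR-23, miR-24, miR-27, miR-29, miR-92a, miR-130a, miR-155, miR-210, miR-296, miR-424 and miR-503) 12 were tested in the human mapping, and 10 passed as higher in the pellets, beside 47.7% of all miRNAs, with 0 lower. Their median log2 fold change was 2.57, beside 2.05 over all tested miRNAs. In the mouse mapping 10 of 12 passed as higher, beside 55.9% of all, with a median of 2.41 beside 2.12. Of these 10 miR-21a-3p met the filter through the pellets alone, with at most 0.0132 RPM in a supernatant. Its call and the mouse counts that hold it are descriptions. The list was chosen with earlier results of these data known. These calls have the same limits as those of the group. By the median of ratios only 1 of all 153 tested human miRNAs passed as higher, and without supernatant 1 or 2 0 passed. miR-21-5p, a miRNA of activated fibroblasts, stood at 343, 148 and 136 RPM in pellets 1, 2 and 3, against 12.7, 22.5 and 34.1 RPM in supernatants 1, 2 and 3 (log2 fold change 3.09, adjusted p = 0.00913 from limma). miR-10b-5p stood at 87.6, 105 and 53.6 RPM in the pellets, with 7.82, 6.66 and 10.9 RPM for the supernatants (log2 fold change 3.11, adjusted p = 0.00913 from limma). miR-503-5p (0.66) and miR-130a-3p (0.23) did not pass (adjusted p = 0.378 and 0.782 from limma). The erythroid names miR-144-3p, miR-451a and miR-486-5p, listed as known from red blood cells, summed to between 143.1 and 491 RPM in a pellet and between 11.9 and 20.9 RPM in a supernatant. Most of the pellet sums was miR-486-5p, at 138, 440 and 176 RPM in pellets 1, 2 and 3. miR-451a was listed there at 4.80, 37.0 and 10.4 RPM, although the paper states that the library kit did not yield miR-451. The hepatocyte names, led by miR-122-5p, summed to between 49661 and 92899 RPM in a pellet and between 30992 and 40809 RPM in a supernatant. The part of these cells in the results was not tested.

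**Figure D5:**
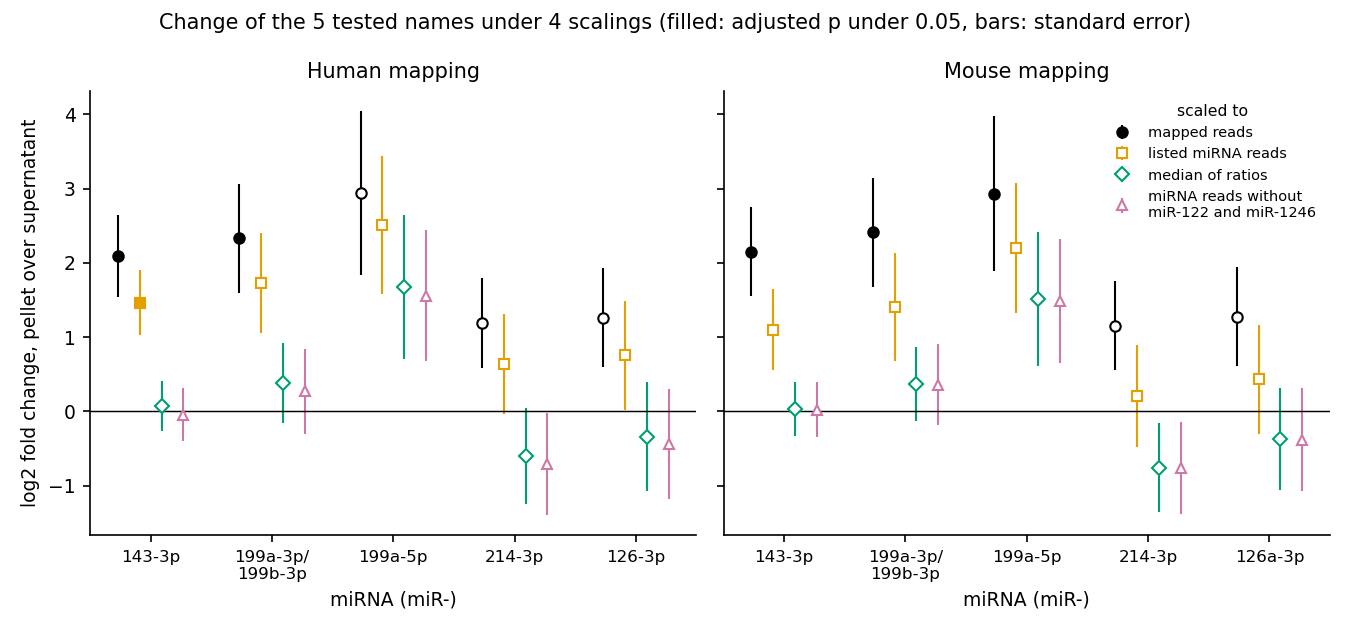
Log2 fold change, pellet over supernatant, of the 5 tested miRNAs with standard errors, scaled to mapped reads, to all listed miRNA reads, by the median of ratios, or to the miRNA reads without miR-122 and miR-1246. Filled symbols passed limma at 0.05. miR-143-3p falls from 2.10 per mapped read to 0.07 by the median of ratios, and miR-199a-5p from 2.94 to 1.68.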

How the data were processed

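Small RNA libraries of 3 pellets and 3 supernatants were compared, grouped by their GEO titles. The authors deposited RPM values (reads per 1000000 mapped reads of a library) for miRNAs, once mapped to hg19 with exceRpt V2.2.8 and once to mm10 (per the submitters' processing notes, pipeline not given in the sources used here). Neither table was pooled over libraries. The 2 deposited tables of RNA classes were not used here.

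Members were all rows named miR-126, miR-126a, miR-143, miR-145, miR-145a, miR-199a, miR-199b, miR-214, miR-221 or miR-222, both arms. Members and lists were chosen with earlier results of these data known. miRNAs that reached 1 RPM in 3 or more libraries were tested by limma 3.58.1 (R 4.3.3) on log2(RPM + 1), with a variance trend, no covariate and Benjamini-Hochberg adjustment at 0.05 over all miRNAs tested in a mapping, two-sided. The scale understates changes of rare miRNAs. Two-sided exact permutation tests over 20 relabellings were run in Python 3.11.15, with 0.10 as the smallest p possible. Members with a mean of at least 1 RPM in a fraction are given for every library. For miR-143-3p and miR-199a-5p the 5 best correlated other miRNAs are named. Any other name was picked once its values were known.

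The smallest value that 6 or more miRNAs of a library had in common was taken as 1 read. Within 0.02 reads, 35.6% (pellet 2) to 59.6% (pellet 3) of the values above 0 of the human mapping were whole, so count models were not used. The limit of 3 counts for a value of 0 covers only counting error. The steps were tested on simulated data. Alternatives were other pseudocounts, filters and scalings, no trend, a block for the replicate number, and fits with 1 library left out.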

Additional observations from a re-analysis of the deposited data

How the results depend on the processing

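In the human mapping 2 vascular and mesenchymal miRNAs and 73 of all tested miRNAs passed. With a pseudocount of 10 RPM 1 and 38 passed, without a filter 0 and 11, and scaled to listed miRNA reads 1 and 37. By the median of ratios, and also scaled to miRNA reads without miR-122 and miR-1246, 0 and 1 passed as higher, with 5 of all lower. A pseudocount of 0.1 RPM gave 3 and 82, and a filter of 10 RPM 3 and 61. In the mouse mapping 3 and 80 passed, with 1 and 34, 0 and 10, 0 and 9, and, under both last scalings, 0 and 1 (7 lower) under the same alternatives. Leaving out 1 library gave 0 to 3 of the group and 0 to 97 of all human miRNAs, or 0 to 94 of all mouse miRNAs. None of the group passed without supernatant 1, 2 or 3 in either mapping, where 0 (without 1 or 2) or 31 (without 3) of all human and 0 or 26 of all mouse miRNAs passed. Of 146 alternative values of single miRNAs 91 kept their direction and their side of the threshold, 41 lost a call and 5 gained one. Names without a call count among the 91. miR-199a-3p/miR-199b-3p kept its call under 5 alternatives and lost it under 10 in each mapping. miR-143-3p kept its call under 9 and lost it under 5 in the human mapping (mouse 8 and 7), and miR-199a-5p under 5 and 9 in the mouse mapping. The other 9 of the 146 values turned negative. By the median of ratios these were miR-126-3p at -0.34 and miR-214-3p at -0.61, and -0.37 and -0.76 in the mouse mapping. Without miR-122 and miR-1246 in the total they were -0.44 and -0.70, with miR-143-3p at -0.045, and -0.38 and -0.76 in the mouse mapping. The cause was not tested.

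With a pseudocount of 10 RPM the difference between fractions in the log2 ratio of miR-199a-3p to miR-199a-5p turned to 0.46 (mouse 0.51), and that of miR-199a-5p to miR-143-3p to -0.66 (mouse -0.68). Leaving out 1 library, the former ranged from -1.77 to 0.53 (mouse -1.57 to 0.57) and the latter from -0.14 to 1.68 (mouse -0.058 to 1.48), each turning sign without pellet 1. For miR-126-3p to miR-143-3p the range was -1.56 to -0.33 (mouse -1.63 to -0.40).

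With the replicate number as block, 78 human and 73 mouse miRNAs passed, 3 of the group in each, since miR-199a-5p passed in the human mapping as well (adjusted p = 0.0130 from limma). Deviations of libraries with the same number correlated at -0.19, 0.27 and 0.26 for numbers 1, 2 and 3 (mouse -0.21, 0.22 and 0.30). Pellets 1 and 2 correlated better with a supernatant of another number, pellet 2 only slightly in the human mapping (0.28 with supernatant 1). With so few libraries these values do not settle the pairing. The paper took both fractions from spun serum, but no label says which pellet and supernatant belong together. A number was therefore not read as a pair. Depth limits the rare names: a count of 0 allows 3.46 RPM in pellet 3 of the human mapping.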

Other observations

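The high level of miR-199a-5p in pellet 1 was shared by other miRNAs, chosen here after their values were seen. Of 138 human miRNAs with at least 10 RPM in pellet 1, 13 were at least 10 times as high there as in each of the other pellets, with levels under 3 counts raised to 3 counts, beside 0 of 101 in pellet 2 and 0 of 82 in pellet 3. Of the 11 names of the group miR-199a-5p was among the 13. miR-381-3p stood at 568 RPM in pellet 1 and at 41.7 and 6.94 RPM in pellets 2 and 3. miR-370-3p stood at 476 RPM in pellet 1, at 0 in pellet 2 and at 1.15 RPM in pellet 3. miR-654-3p stood at 302 RPM in pellet 1 and at 0.637 and 1.15 RPM in pellets 2 and 3. The mouse mapping gave 10 such miRNAs in pellet 1 and 0 in pellets 2 and 3. The part of the library and of the serum in this pattern was not tested.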
